A study of Mus musculus with 11 samples.

Results

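RNA of the distal colon was compared between the mice of 2 cages, cage C and cage B, with genotype held as a separate term. The 7 mice of these cages were taken from the 11 of the study by the cage written in each mouse's label, and the 4 mice of cage A were left out. Cage C held WT-6, WT-10 and KO-3, and cage B held WT-2, WT-11, KO-4 and KO-9, where the letters give the genotype and the number is the mouse's own number. WT mice were wild-type and KO mice were Nrg4-/-, without the gene of neuregulin-4, a ligand of the receptor ErbB4. Per the labels, the genotypes were put together in shared cages at 9 weeks of age and the adult animals were dissected at 11 to 12 weeks. Males and females were used, with no sex given for a single mouse. Polyadenylated RNA of the whole thickness of the colon wall was read as single-end reads of 75 bases. Of the 22243 genes in the deposited table, 10850 had at least 1 TPM in 3 or more of these 7 mice and were tested. TPM is a transcript level scaled for transcript length and library total.

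Mice in a cage eat each other's faeces, and so come to share gut microbes. They also share food, bedding and handling, and may share litter and the hour of dissection. Here the genotypes were put together at 9 weeks of age, so litter need not follow the cage. The colon answers microbes through its surface epithelium, which makes antimicrobial proteins, through mucus from goblet cells, and through IgA, which plasma cells of the mucosa secrete. The wall also holds crypts with dividing cells, stroma, vessels, muscle, nerves, scattered lymphoid follicles and attached fat. In bulk RNA of such tissue fewer cells of a type and less RNA per cell cannot be told apart. Whatever else cage-mates shared cannot be told apart from the cage, and each cage was sampled once.

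No gene differed between cage C and cage B at the chosen limit of the false discovery rate (FDR), 0.05. The test (limma on log2(TPM + 0.5), with Benjamini-Hochberg adjustment) called 0 of 10850 genes (0.0%), with a smallest FDR of 0.0537 and a next smallest of 0.451. An unadjusted p below 0.05 was found for 537 genes (4.95%), close to the 5% that evenly spread p-values would place there. Of these, 196 were higher in cage C (1.81% of all genes tested) and 341 were lower (3.14%). Values of the cages did not overlap, with every mouse of one cage beyond every mouse of the other, for 241 genes higher in cage C (2.22%) and 312 lower (2.88%). The fitted difference was above 0 for 5157 genes (47.5%). Its median over all genes was -0.01 on the log2 scale, and the 5th and 95th percentiles were -0.53 and 0.39. The standard error of a gene had a median of 0.18, or 0.15 among the 6596 genes with a mean of 5 TPM or more. All differences below are cage C minus cage B as log2(TPM + 0.5), a scale on which differences of low genes come out too small, with ± the standard error of the fit. Since Tbc1d19 alone had an FDR below 0.451, the genes below are described by their values, by whether the cages overlapped, and by counts at an unadjusted p below 0.05 of this test. Such counts stand against the 1.81% of all genes that were higher and the 3.14% that were lower at that p.

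**Figure D1:**
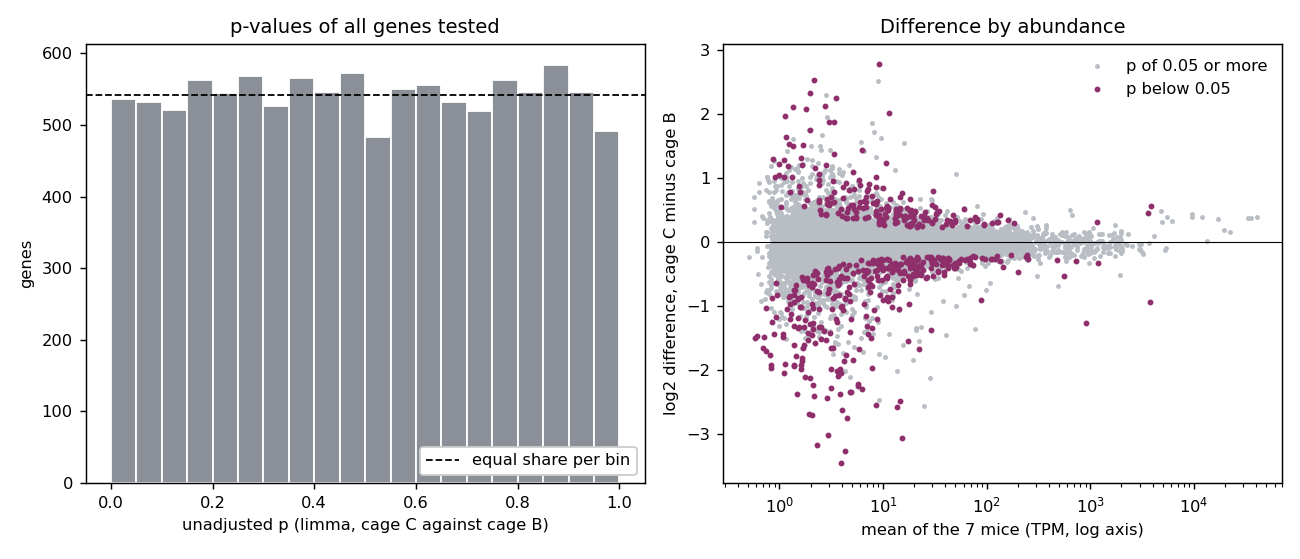
Left, the number of genes in each of 20 bins of unadjusted p for cage C against cage B, with a dashed line at an equal share per bin. Right, the log2 difference of each gene (cage C minus cage B) against its mean over the 7 mice in TPM on a log axis, with genes of p below 0.05 in purple. The first bin, which holds 537 genes, stands no higher than the rest, and the widest differences belong to genes of low mean.

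The mice did not group by cage over the transcriptome. Log2 values of 2 mice of the same cage correlated across genes at 0.947 to 0.962 (median 0.956 over 9 pairs), and those of mice of different cages at 0.944 to 0.966 (median 0.954 over 12 pairs). The closest pair, KO-4 and WT-6, came from different cages and carried different genotypes. Each mouse had 10221 to 10747 genes at 1 TPM or more. The genotype labels could not be checked on Nrg4, which was listed at 0 in all 7 mice. St3gal4, a sialyltransferase gene that separates the genotypes of this study, ranged from 163 to 282 TPM in the WT mice and from 0.932 to 1.37 TPM in the KO mice. The colonocyte carbonic anhydrase Car1 (883 to 3312 TPM) and the hindgut homeobox gene Hoxd13 (72.4 to 94.8 TPM) were present in every mouse. The Y-linked genes Eif2s3y, Ddx3y and Kdm5d reached at most 0.236 TPM in any mouse of either cage, and Uty was at 0 in all 7. By these genes no mouse of either cage stood out as male, while the labels name both sexes for the study.

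The gene with the smallest p was Tbc1d19, which encodes a protein with the domain of Rab GTPase activators (chromosome 5, 53809606 to 53903965, plus strand, mm10). Its level was 5.21 TPM in WT-2, 3.22 in WT-11, 4.50 in KO-4 and 3.33 in KO-9, and it was at or next to 0 in the 3 mice of cage C, the highest of them at 2.24e-07 TPM. The cages did not overlap, and the difference was -3.17 ± 0.25 (limma FDR 0.0537). In the authors' deposited table the geometric mean of the normalized estimated count of its leading transcript over the 11 mice was 7.31, with a technical variance of 2.07 on the natural log scale, against medians of 205 and 0.0113 over the genes tested. Of 24 genes, the 12 of smallest p in either direction, 8 (33.3%) had a mouse below 0.1 TPM, against 5.37% of all genes tested, and the 20 of them with a value in the authors' deposited table had a median technical variance of 0.731. Among the 298 genes with a difference of more than 1 in either direction, 201 (67.5%) had such a mouse.

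Low genes of this kind made up much of the head of the list. Kif12, a kinesin, was at 1.25 TPM in WT-2, 4.31e-04 in WT-11, 2.198 in KO-4 and 2.29 in KO-9 of cage B, and at 4.704 in WT-6, 5.65 in WT-10 and 8.41 in KO-3 of cage C, without overlap (2.24 ± 0.44). Angel2 stood at 0.253, 5.87e-07, 2.34 and 0 TPM in cage B and 4.05, 2.68 and 5.63 TPM in cage C, and Pspn, which encodes the GDNF-family ligand persephin, at 0.607, 0, 0.312 and 0 TPM in cage B and 1.55, 3.44 and 2.09 TPM in cage C. Both were higher in each mouse of cage C than in any of cage B, with differences of 2.52 ± 0.59 and 1.97 ± 0.42. Pml, the organiser of PML nuclear bodies, had 0.245, 2.04e-07, 2.14 and 1.72 TPM in cage B and 1.57, 2.05 and 4.001 TPM in cage C, and the ranges overlapped (1.51 ± 0.31). Stoml1, a stomatin-like gene next to Pml on chromosome 9 (58253164 to 58262520), the chromosome that also carries Nrg4, lay the other way: it was at 7.52 TPM in WT-2, 6.65 in WT-11, 4.495 in KO-4 and 5.46 in KO-9 of cage B, and at 2.905 in WT-6, 3.62 in WT-10 and 2.64 in KO-3 of cage C. Stoml1 did not overlap, and its difference of -0.93 ± 0.15 was -1.02 among WT mice alone. The mismatch repair gene Msh3 had 2.97, 2.31, 1.001 and 1.11 TPM in cage B and 0.558, 2.93e-06 and 2.17e-06 TPM in cage C (-1.92 ± 0.34), without overlap. The kinase of N-acetylglucosamine, Nagk, had 5.99, 7.03, 2.88 and 1.202 TPM in cage B and 2.703, 2.17 and 0 TPM in cage C, where KO-9 lay inside the range of cage C (-1.66 ± 0.33). Tyw5, a hydroxylase of transfer RNA, had 3.36, 3.25, 1.44 and 1.86 TPM in cage B and 0.986, 0.879 and 0.425 TPM in cage C, a difference of -1.33 ± 0.20 with no overlap.

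Better measured genes near the head of the list differed by less. Lars2, given last here, was not one of them, with a technical variance of 0.462 against a median of 0.0113 over the genes tested. Ptk2, at 0.0521, was also above that median. Timm8a1, a chaperone of mitochondrial protein import, was at 28.6 TPM in WT-2, 26.5 in WT-11, 29.1 in KO-4 and 29.6 in KO-9 of cage B, and at 36.3 in WT-6, 37.9 in WT-10 and 40.3 in KO-3 of cage C. Its cages stood apart, with a difference of 0.43 ± 0.09 (limma FDR 0.988). Bckdha, a subunit of the enzyme that breaks down branched-chain keto acids, was at 42.1 TPM in WT-2, 38.9 in WT-11, 36 in KO-4 and 34.2 in KO-9 of cage B, and at 30.1 in WT-6, 28.99 in WT-10 and 25.1 in KO-3 of cage C. It was lower in each mouse of cage C, with a difference of -0.46 ± 0.09 (limma FDR 0.988). Ctse, the aspartic protease cathepsin E, was at 33.8 TPM in WT-2, 38.5 in WT-11, 31.4 in KO-4 and 35.7 in KO-9 of cage B, and at 26.9 in WT-6, 26.5 in WT-10 and 20.4 in KO-3 of cage C, again with no overlap (-0.54 ± 0.11). Ptk2, the focal adhesion kinase, was higher by 0.55 ± 0.12, with cage B at 4.91 to 7.24 TPM and cage C at 7.18 to 9.61 TPM, an overlap by a small margin. Lars2, the leucyl-tRNA synthetase of mitochondria, was at 12.1 TPM in WT-2, 9.68 in WT-11, 6.18 in KO-4 and 6.802 in KO-9 of cage B, and at 6.18 in WT-6, 4.55 in WT-10 and 2.07 in KO-3 of cage C, which placed WT-6 just below KO-4 and gave a difference of -1.16 ± 0.18.

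The remaining genes of that group of 24 were of low or middling level. Tpm2, a tropomyosin of muscle, averaged 1.29 ± 0.326 TPM in cage B (SD, n = 4) and 3.48 ± 0.167 TPM in cage C (SD, n = 3), a difference of 1.16 ± 0.21. Apoa2, an apolipoprotein, was also higher in each mouse of cage C (1.06 ± 0.21), as was Ndufc1, a subunit of respiratory complex I (1.86 ± 0.42). Palm (-1.27 ± 0.27), Miip (-0.81 ± 0.17) and Myl4, a myosin light chain (-1.49 ± 0.33), were lower in each. Abo, the glycosyltransferase of the ABO blood group antigens, had 8.396, 8.27, 4.43 and 7.86 TPM in cage B and 1.42, 4.697 and 0.709 TPM in cage C, so that WT-10 overlapped cage B and the difference was -1.85 ± 0.40. Uhrf1, Pcna and Rpa2, the other genes of the 24, belong to DNA replication and are described next.

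Several genes of DNA replication had higher values in cage C, none of them past the FDR limit. Cells copy their DNA once per cycle, in S phase, with the MCM helicase that opens the helix, the clamp PCNA that holds the polymerase, and UHRF1 and HELLS, which carry methylation onto the new strands. In the colon this takes place in the lower crypt. Many of these genes are transcribed under E2F factors as cells enter S phase. Of the 34 tested members of a list of proliferation genes, 9 were higher in cage C at p below 0.05 and 0 were lower, where 1.81% and 3.14% of all genes were. As many as 17 of the 34 had a difference above 0, however, and the median was 0.04. The members that were higher were all genes of replication and its licensing, namely Uhrf1, Pcna, Hells, Mcm2, Mcm3, Mcm4, Mcm5, Mcm6 and Cdc6. Those of mitosis, such as Ccnb1, Aurka, Plk1 and Top2a, had differences below 0, none of them at p below 0.05. Beyond Uhrf1 and Pcna these genes were picked out after their values were seen.

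The 200 bases before the start sites of some of these genes are shown because E2F sites are a known feature of replication gene promoters. Promoter sequence was taken from RefSeq (GRCm38.p6) for 8 of the 9 genes, Mcm4 being the one without an entry. The motifs searched were TTTCCCGC, TTTCGCGC, TTTGCCGC and TTTGGCGC on both strands, and matches, which may overlap, stand in capitals. Of the 8 genes, 5 held a match in this window (62.5%), as did 2 of the 21 other tested members of the list with an entry (9.52%), 283 of 8492 tested genes with one (3.33%) and 495 of all 27025 genes of the promoter table (1.83%), a gene counting once if any of its start sites held one. Windows of 5 matching genes are followed by that of Pcna, which held none of these strings:
Mcm6 (chr1:128359706-128359905, minus strand): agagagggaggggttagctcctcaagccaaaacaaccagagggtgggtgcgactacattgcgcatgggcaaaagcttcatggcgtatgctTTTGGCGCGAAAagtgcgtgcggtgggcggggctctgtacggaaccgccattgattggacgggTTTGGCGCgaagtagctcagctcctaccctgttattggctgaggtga
Mcm5 (chr8:75109309-75109508, plus strand): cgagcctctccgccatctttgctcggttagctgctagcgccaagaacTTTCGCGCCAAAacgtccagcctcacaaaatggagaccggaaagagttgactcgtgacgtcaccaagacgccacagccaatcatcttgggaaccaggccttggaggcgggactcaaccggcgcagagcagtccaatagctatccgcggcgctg
Hells (chr19:38930790-38930989, plus strand): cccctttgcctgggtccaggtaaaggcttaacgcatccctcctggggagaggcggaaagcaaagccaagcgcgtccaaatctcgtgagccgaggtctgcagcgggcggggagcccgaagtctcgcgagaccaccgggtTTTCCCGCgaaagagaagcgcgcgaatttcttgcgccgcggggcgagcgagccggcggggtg
Cdc6 (chr11:98907951-98908150, plus strand): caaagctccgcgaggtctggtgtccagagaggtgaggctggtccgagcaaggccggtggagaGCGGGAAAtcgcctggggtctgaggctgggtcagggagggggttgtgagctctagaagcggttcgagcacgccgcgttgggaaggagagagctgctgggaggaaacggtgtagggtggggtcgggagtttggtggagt
Uhrf1, its downstream start site (chr17:56304113-56304312, plus strand): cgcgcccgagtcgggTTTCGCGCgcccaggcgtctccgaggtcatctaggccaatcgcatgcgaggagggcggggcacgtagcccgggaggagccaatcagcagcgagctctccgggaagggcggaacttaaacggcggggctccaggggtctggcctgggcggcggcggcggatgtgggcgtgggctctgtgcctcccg
Pcna (chr2:132253181-132253380, minus strand): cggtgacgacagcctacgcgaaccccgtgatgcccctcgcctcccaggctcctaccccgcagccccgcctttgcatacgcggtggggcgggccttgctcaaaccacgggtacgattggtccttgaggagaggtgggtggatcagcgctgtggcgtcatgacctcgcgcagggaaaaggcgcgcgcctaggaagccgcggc

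The window of Mcm6 held 3 matches, 2 of which overlap, starting 110, 106 and 47 bases before the start site. In Mcm5 there were 2 overlapping matches, and in Hells, Cdc6 and Uhrf1 there was 1 each. These are matches of letters, and no binding was measured here. The 9 genes were set apart from the rest of the list by p in these same data, and all are genes of replication and its licensing. The shares of promoters with a match thus describe the kinds of genes and are no test of the cage difference.

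Uhrf1, which reads hemimethylated DNA and recruits the maintenance methyltransferase (chromosome 17, 56303321 to 56323486, plus strand), was at 9.34 TPM in WT-2, 9.797 in WT-11, 10.1 in KO-4 and 7.28 in KO-9 of cage B, and at 13.4 in WT-6, 15.7 in WT-10 and 15.5 in KO-3 of cage C. Each mouse of cage C was above each of cage B. The difference was 0.67 ± 0.15 (limma FDR 0.988), 0.57 among WT mice and 0.81 among KO mice. Pcna (chromosome 2, 132249162 to 132253314, minus strand) was at 72.96 TPM in WT-2, 68.7 in WT-11, 75.8 in KO-4 and 70.8 in KO-9 of cage B, and at 88.8 in WT-6, 91.4 in WT-10 and 94.8 in KO-3 of cage C. Relative to its level it had the smallest standard error of the replication genes named here. It averaged 72.1 ± 3.04 TPM in cage B (SD, n = 4) and 91.7 ± 2.999 TPM in cage C (SD, n = 3), and its difference of 0.36 ± 0.08 (limma FDR 0.988) stayed between 0.34 and 0.38 with any 1 mouse left out. Rpa2, a subunit of the protein that coats single-stranded DNA, was at 10.4 TPM in WT-2, 8.005 in WT-11, 8.32 in KO-4 and 9.03 in KO-9 of cage B, and at 13.1 in WT-6, 12.6 in WT-10 and 14.3 in KO-3 of cage C, also without overlap (0.56 ± 0.13).

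Hells, a chromatin remodeller needed for DNA methylation, was at 2.86 TPM in WT-2, 2.26 in WT-11, 2.62 in KO-4 and 2.201 in KO-9 of cage B, and at 4.07 in WT-6, 3.89 in WT-10 and 5.69 in KO-3 of cage C. Its difference of 0.77 ± 0.18 had no overlap and was widest in KO-3. Of the MCM genes, Mcm6 was at 27.4 TPM in WT-2, 22.1 in WT-11, 25.1 in KO-4 and 22.4 in KO-9 of cage B, and at 36.7 in WT-6, 28.6 in WT-10 and 43.7 in KO-3 of cage C. Mcm2 had 12.1, 12.2, 10.3 and 9.83 TPM in cage B and 14.9, 14.5 and 18.6 TPM in cage C, and for both genes the cages stood apart (0.58 ± 0.16 and 0.50 ± 0.15). Mcm3, Mcm4 and Mcm5 had differences of 0.54 ± 0.19, 0.52 ± 0.19 and 0.41 ± 0.16, each with WT-10 inside the range of cage B. Mcm5 had a technical variance of 1.18, against a median of 0.0113 over the genes tested. Cdc6, which loads the helicase onto origins, was low, with 2.03, 0.9405, 1.32 and 1.32 TPM in cage B and 2.73, 2.06 and 2.53 TPM in cage C, and did not overlap by a margin of 2.03 against 2.06 TPM. For Hells, Cdc6 and these 5 MCM genes the difference was wider in the KO mice, of which cage C had 1, than in the WT mice, for example 0.87 against 0.39 for Mcm6. The interaction of cage and genotype was not called for Mcm6 (limma FDR 0.874).

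Mitotic genes did not share this direction. Mki67, the proliferation marker Ki-67, was at 11.8 TPM in WT-2, 22.2 in WT-11, 27.4 in KO-4 and 21.1 in KO-9 of cage B, and at 20.03 in WT-6, 13.2 in WT-10 and 17.97 in KO-3 of cage C. Its difference of -0.16 ± 0.26 was small beside its spread. Ccnb2, which encodes a mitotic cyclin, had a difference of -0.58 ± 0.26, and Ube2c, a partner of the anaphase-promoting complex, one of -0.56 ± 0.29. For all 3 genes WT-2 had the lowest level of cage B and lay within or below the range of cage C. Without WT-2 the median of the proliferation list was -0.04 in place of 0.04. With a filter of 5 TPM in 3 mice it was -0.01.

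**Figure D2:**
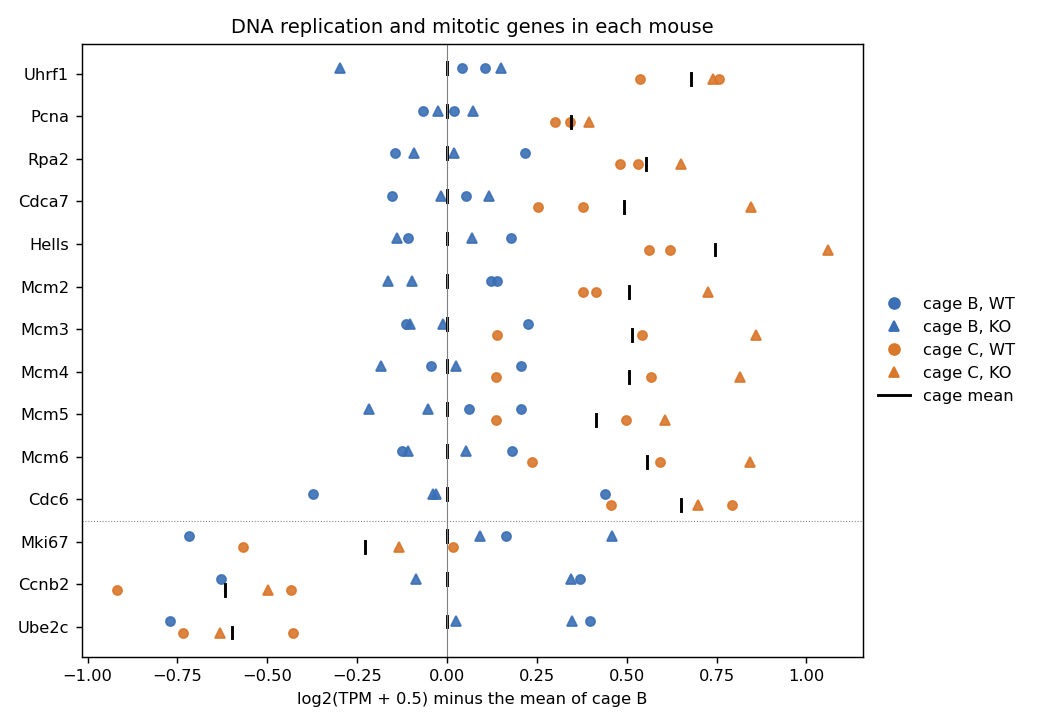
Log2(TPM + 0.5) of 11 replication genes and, under the dotted line, 3 mitotic genes in each mouse, set to the mean of cage B. Blue marks are cage B and orange marks cage C, circles WT and triangles KO, and black bars cage means. For Uhrf1, Pcna, Rpa2, Cdca7, Hells, Mcm2, Mcm6 and Cdc6 all 3 mice of cage C lie above all 4 of cage B, while the mitotic genes overlap.

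Replication-dependent histone genes, whose messages accumulate in S phase, were higher for 16 of 19 tested members, with a median of 0.30. WT-2 was the lowest mouse on this list, and without it the median was 0.13. Among KO mice alone 10 of 19 were higher, with a median of 0.01. Hist1h4i was at 3.35 TPM in WT-2, 6.38 in WT-11, 4.91 in KO-4 and 6.94 in KO-9 of cage B, and at 12.4 in WT-6, 6.29 in WT-10 and 10.3 in KO-3 of cage C, with WT-10 inside the range of cage B (0.82 ± 0.30). Hist1h2bg, at 0.856, 3.001, 3.48 and 2.08 TPM in cage B and 5.51, 4.18 and 3.83 TPM in cage C, did not overlap (0.94 ± 0.39). These were the 2 members at p below 0.05, where 1.81% of all genes were higher. Histone genes are near-identical copies whose messages mostly lack a poly(A) tail, so a poly(A) library measures them poorly and their reads can be shared between copies. Among stem cell and Wnt target genes, with 9 of 15 higher and a median of 0.06 (-0.12 without KO-3), Cdca7 alone was at p below 0.05. Cdca7, a partner of the HELLS remodeller, was at 23.9 TPM in WT-2, 27.6 in WT-11, 28.9 in KO-4 and 26.3 in KO-9 of cage B, and at 34.7 in WT-6, 31.8 in WT-10 and 48.1 in KO-3 of cage C, without overlap (0.54 ± 0.13), and Nkd1, a Wnt feedback inhibitor, had -0.65 ± 0.39. The stem cell marker Lgr5 stood at 3.78, 3.39, 5.03 and 3.27 TPM in cage B and 4.54, 2.28 and 7.4 TPM in cage C, with the cages overlapping.

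Most chaperone genes had slightly higher values in cage C. Genes of the unfolded protein response, which act on proteins folding in the endoplasmic reticulum, were higher for 25 of 27 members with a median of 0.14, where 47.5% of all genes were higher and the median was -0.01. Without KO-3 the median of the list was 0.08. Hspa5, the luminal HSP70 also called BiP, was at 107 TPM in WT-2, 137 in WT-11, 113 in KO-4 and 120.4 in KO-9 of cage B, and at 149 in WT-6, 134 in WT-10 and 189 in KO-3 of cage C. KO-3 was the highest and WT-10 lay inside the range of cage B (0.41 ± 0.14), and without KO-3 the difference was 0.23. Sdf2l1, a partner of BiP, differed by 0.24 ± 0.10. The heat shock list had 15 of 22 higher with a median of 0.07, which was 0.14 without KO-9. Hsp90aa1, the inducible cytosolic HSP90, was at 105 TPM in WT-2, 103 in WT-11, 106 in KO-4 and 95.2 in KO-9 of cage B, and at 124 in WT-6, 123 in WT-10 and 129 in KO-3 of cage C and did not overlap (0.29 ± 0.08). Hspd1, the mitochondrial HSP60, did not overlap either (0.31 ± 0.12). Hspa5 is a member of both lists, which leaves Hsp90aa1 and Hspd1 as the other 2 heat shock members at p below 0.05.

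In the surface epithelium single genes stood apart between the cages, in both directions. Absorptive colonocyte markers were higher for 19 of 28 with a median of 0.12, which without WT-2 was -0.02. Fabp2, an intracellular carrier of fatty acids, was at 22.4 TPM in WT-2, 19.8 in WT-11, 24.7 in KO-4 and 22.1 in KO-9 of cage B, and at 14.4 in WT-6, 16.5 in WT-10 and 15.4 in KO-3 of cage C. It was lower in every mouse of cage C (-0.50 ± 0.11), with -0.44 among WT mice and -0.59 among KO mice. Saa1, a serum amyloid A protein that colonic epithelium makes in contact with bacteria, was at 2747 TPM in WT-2, 3361 in WT-11, 3429 in KO-4 and 3098 in KO-9 of cage B, and at 3529.8 in WT-6, 4435 in WT-10 and 4714 in KO-3 of cage C, higher in every mouse of cage C (0.44 ± 0.14). Ceacam20, of the brush border, was likewise higher without overlap (0.31 ± 0.11), and the peptide Guca2a (guanylin), which drives fluid secretion, was lower with an overlap (-0.53 ± 0.19).

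Antimicrobial and microbe-responsive genes were higher for 18 of 30 with a median of 0.10, with 3 higher and 1 lower at p below 0.05 (1.81% and 3.14% of all genes). Without KO-9 the median was 0.01. Beside Saa1, Sprr2a1, a small proline-rich protein, was at 1076 TPM in WT-2, 1118 in WT-11, 919.7 in KO-4 and 1079 in KO-9 of cage B, and at 1133 in WT-6, 1364 in WT-10 and 1416 in KO-3 of cage C (0.31 ± 0.13). This gene belongs to a family of near-identical copies, between which reads can be split. Duoxa2, the maturation factor of the hydrogen peroxide-making oxidase DUOX2, was at 10.1 TPM in WT-2, 19.6 in WT-11, 12.9 in KO-4 and 15.5 in KO-9 of cage B, and at 16.9 in WT-6, 18.2 in WT-10 and 33.2 in KO-3 of cage C, with KO-3 the highest (0.66 ± 0.28). Reg3g, a lectin against Gram-positive bacteria whose level follows the microbiota, stayed low in both cages at 1.02, 1.08, 0.599 and 3.33 TPM in cage B and 1.49, 1.29 and 2.26 TPM in cage C, and its difference of 0.34 ± 0.42 was within the spread.

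Goblet cell genes were lower for 15 of 19 with a median of -0.08. It was -0.02 without WT-11 and -0.17 without WT-6, and among WT mice or KO mice alone 7 of 19 were higher. Klk1, a kallikrein protease, was at 1347 TPM in WT-2, 1304 in WT-11, 1338 in KO-4 and 1196 in KO-9 of cage B, and at 1058 in WT-6, 1217 in WT-10 and 908 in KO-3 of cage C (-0.33 ± 0.11), where WT-10 exceeded KO-9. Zg16, a lectin of the mucus that binds bacteria and the member that was lower on the antimicrobial list, was at 3454 TPM in WT-2, 5046 in WT-11, 3874 in KO-4 and 5856 in KO-9 of cage B, and at 3724 in WT-6, 3109 in WT-10 and 1262 in KO-3 of cage C. KO-3 was far below the rest, so that the difference of -0.94 ± 0.36 was -0.30 among WT mice and -1.92 among KO mice. The mucin Muc2, at 144, 174, 150.2 and 214 TPM in cage B and 164, 174 and 99.7 TPM in cage C, likewise had its lowest value in KO-3 and overlapped otherwise.

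Hormones and granule proteins of enteroendocrine cells were lower for 15 of 19 members, with a median of -0.25 that ranged from -0.31 to -0.13 with any 1 mouse left out. Chgb, a chromogranin of secretory granules, was at 56.8 TPM in WT-2, 64.6 in WT-11, 46.1 in KO-4 and 45.9 in KO-9 of cage B, and at 48.8 in WT-6, 38.4 in WT-10 and 36.7 in KO-3 of cage C. Resp18, another granule protein, had 29.1, 22.4, 13.7 and 19.5 TPM in cage B and 15.6, 14.9 and 12.2 TPM in cage C. WT-6 lay above KO-4 and KO-9 for Chgb, and above KO-4 for Resp18, and the genes had differences of -0.42 ± 0.12 and -0.60 ± 0.17. Sct, the hormone secretin, was listed at 0 in KO-3, with 5.28, 5.95, 1.57 and 4.88 TPM in cage B and 3.61, 1.98 and 0 TPM in cage C (-1.66 ± 0.49). The chromogranin Chga had -0.39 ± 0.16, while Gcg, the precursor of GLP-1, stood at 35.01, 32.6, 30.8 and 33.7 TPM in cage B and 34.4, 36.2 and 39.1 TPM in cage C, with the cages overlapping.

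**Figure D3:**
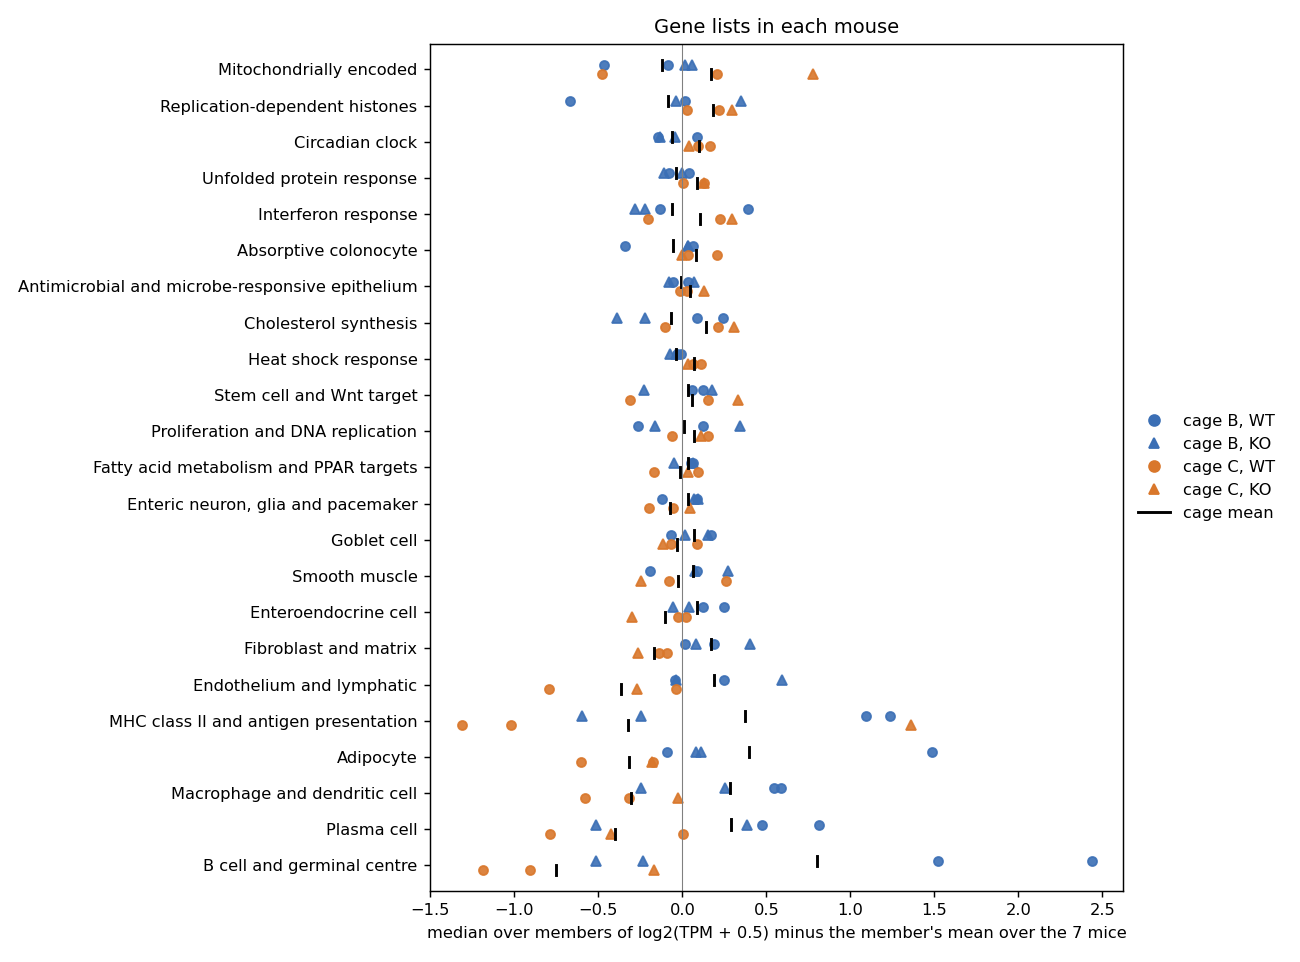
Position of each mouse on 23 gene lists, ordered by the median difference of the list. A mark is the median, over the members tested, of a mouse's log2(TPM + 0.5) minus the member's mean over the 7 mice, with blue for cage B, orange for cage C, circles for WT, triangles for KO and black bars for cage means. All 3 mice of cage C lie to the left of cage B for the fibroblast and adipocyte lists and to the right for the heat shock list, while on the MHC class II list KO-3 lies with WT-2 and WT-11.

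Transcripts of B lineage cells had lower values in cage C, with mice of cage B far apart from each other. The B cell list had a median of -2.02, the farthest from 0 of the lists described here. This was a difference among WT mice, with a median of -3.35, while among KO mice it was 0.21 with 2 of 3 genes higher. With 1 mouse left out it lay between -3.35 (without KO-3) and -1.42 (without WT-2). Immunoglobulin variable and joining segments were lower in cage C for 75 of 84 tested and higher for 9, with a median of -1.38. At p below 0.05, 35 were lower and 2 higher, where 3.14% and 1.81% of all genes were. They made up 35 of the 341 genes lower at that p, which leaves 306 others. Their summed level was 807 TPM in WT-2, 795 in WT-11, 221 in KO-4 and 794 in KO-9 of cage B, and 156 in WT-6, 308 in WT-10 and 210 in KO-3 of cage C. KO-4 thus lay among the mice of cage C. The means of 654 ± 289 TPM (SD, n = 4) and 224 ± 77.0 TPM (SD, n = 3) gave a two-sided exact permutation p of 0.114, where 3 against 4 mice allow no less than 0.0571. Each of these segments comes from the clones of plasma cells and B cells a mouse happens to carry. A segment could pass the filter of 1 TPM in 3 mice through WT-2, WT-11 and KO-9 alone, all of cage B. The counts of segments lower and higher thus favour those high in cage B and are no test of the cage difference.

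Plasma cell genes were lower for 7 of 11 with a median of -0.91, which without WT-6 was -0.61. Igkc, the constant part of the kappa light chain, was at 1383 TPM in WT-2, 1275 in WT-11, 465 in KO-4 and 1702 in KO-9 of cage B, and at 292 in WT-6, 685 in WT-10 and 499.7 in KO-3 of cage C (-1.27 ± 0.50). Jchain, which links IgA into dimers for export into the gut, was at 127 TPM in WT-2, 111 in WT-11, 58.96 in KO-4 and 139 in KO-9 of cage B, and at 39.4 in WT-6, 85.1 in WT-10 and 54.4 in KO-3 of cage C (-0.91 ± 0.36). For both genes KO-4 lay inside the range of cage C. Mzb1, a chaperone of antibody secretion, had 5.55, 5.99, 1.58 and 3.69 TPM in cage B and 1.09, 3.42 and 1.43 TPM in cage C (-1.04 ± 0.40). Xbp1, a secretory transcription factor that goblet cells also express, stood at 87.4, 102, 98.4 and 96.4 TPM in cage B and 101, 98.5 and 104 TPM in cage C.

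B cell markers passed the filter on low values for 3 of 23 genes, Cd79a, Cd79b and Spib, and all 3 were lower. Cd79a, the signalling chain of the B cell receptor, was at 24.5 TPM in WT-2, 9.59 in WT-11, 1.36 in KO-4 and 1.82 in KO-9 of cage B, and at 1.22 in WT-6, 0.919 in WT-10 and 0.869 in KO-3 of cage C. Although no mouse overlapped (-2.25 ± 0.61), WT-2 and WT-11 stood far above the other 5 mice, and KO-4 and KO-9 were close to cage C. Cd79b, its partner, had 13.1, 6.71, 1.63 and 1.26 TPM in cage B and 0.428, 0.316 and 1.73 TPM in cage C (-2.02 ± 0.74), and Ighm, the heavy chain of IgM, 33.4, 12.1, 1.45 and 2.66 TPM in cage B and 1.47, 1.11 and 2.69 TPM in cage C (-1.98 ± 0.82). A pair of genes of lymphoid follicle stroma, chosen after their values were seen, had the same 2 mice on top. Cxcl13, the chemokine that draws B cells into follicles, was at 29.1 TPM in WT-2, 6.62 in WT-11, 1.89 in KO-4 and 1.86 in KO-9 of cage B, and at 0.897 in WT-6, 1.77 in WT-10 and 2.27 in KO-3 of cage C (-1.73 ± 0.77), and Clu, a secreted chaperone of follicular dendritic cells, at 86.8, 37.1, 19.3 and 17.7 TPM in cage B and 12.4, 9.72 and 19.1 TPM in cage C (-1.37 ± 0.52). The part of lymphoid follicles caught in a piece of colon was not measured, and its share in these values was not tested.

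Macrophage and dendritic cell genes were lower for 12 of 14, with a median of -0.64, and 7 were lower at p below 0.05 against 3.14% of all genes. The median was -1.01 without KO-3, that is among WT mice, and -0.09 among KO mice, where 5 of 14 were higher. C1qb and C1qc, chains of the complement component C1q that tissue macrophages make, were both highest in WT-2 and WT-11. C1qb stood at 19.3, 17.5, 6.36 and 11.4 TPM in cage B and 6.43, 8.51 and 6.96 TPM in cage C. C1qc stood at 17.4, 14.8, 6.401 and 11.3 TPM in cage B and 4.84, 8.05 and 6.59 TPM in cage C. The differences were -0.87 ± 0.28 and -0.91 ± 0.30, with KO-4 below all of cage C for C1qb and inside its range for C1qc. Lgmn, a lysosomal protease, was at 24.4 TPM in WT-2, 24.3 in WT-11, 21.1 in KO-4 and 22.8 in KO-9 of cage B, and at 19.1 in WT-6, 20.05 in WT-10 and 18.97 in KO-3 of cage C and did not overlap (-0.27 ± 0.09). Lyz2, the lysozyme of macrophages, was at 110.3 TPM in WT-2, 78.7 in WT-11, 32.5 in KO-4 and 37.7 in KO-9 of cage B, and at 22.03 in WT-6, 24.3 in WT-10 and 48.5 in KO-3 of cage C. WT-2 and WT-11 were again the highest, and the difference of -1.01 ± 0.48 was -1.99 among WT mice and 0.46 among KO mice (interaction limma FDR 0.148).

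MHC class II genes, which present antigen to helper T cells, did not follow the cage. H2-Ab1, the beta chain of the I-A molecule, was at 112 TPM in WT-2, 95.4 in WT-11, 25.98 in KO-4 and 36.96 in KO-9 of cage B, and at 19.5 in WT-6, 12.98 in WT-10 and 119 in KO-3 of cage C. H2-Aa, the alpha chain, was at 128 TPM in WT-2, 113 in WT-11, 21.6 in KO-4 and 35.8 in KO-9 of cage B, and at 22.3 in WT-6, 14.4 in WT-10 and 141 in KO-3 of cage C. The 3 high mice were WT-2 and WT-11 of cage B and KO-3 of cage C. Differences were -2.66 among WT mice and 1.93 among KO mice for H2-Ab1, and -2.71 and 2.33 for H2-Aa, and the interaction had a limma FDR of 0.0632 for both genes. H2-DMb2, which helps to load peptides and is restricted to B cells and other professional presenting cells, was at 16.3, 5.41, 1.62 and 1.79 TPM in cage B and 1.04, 0.198 and 1.37 TPM in cage C with no overlap (-2.05 ± 0.71). Ctss, a protease of the pathway, was higher without overlap, at 339, 363, 313 and 368 TPM in cage B and 398, 429 and 386 TPM in cage C (0.22 ± 0.10). Interferon response genes were higher for 25 of 34 with a median of 0.13, which without KO-3 was -0.08. Ifit1, a sensor of foreign RNA, had 4.02, 7.52, 2.19 and 2.45 TPM in cage B and 5.304, 10.4 and 9.23 TPM in cage C (0.96 ± 0.39), and Tap1, the peptide transporter for MHC class I, 6.84, 6.69, 4.74 and 3.85 TPM in cage B and 2.75, 2.47 and 3.92 TPM in cage C (-0.78 ± 0.25).

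Stromal genes had lower values in cage C across most of their list. Of 27 fibroblast and matrix genes 26 were lower, with a median of -0.29 that lay between -0.37 and -0.16 with any 1 mouse left out, and 5 were lower at p below 0.05 (3.14% of all genes). The value nearest 0 was that without KO-3. Among WT mice alone 9 of 27 were higher, against 1 of 27 among KO mice alone. In 5 the cages did not overlap, all lower, where 2.88% of all genes did so. Vim, the intermediate filament vimentin of mesenchymal cells, was at 21 TPM in WT-2, 17.01 in WT-11, 15.3 in KO-4 and 19.3 in KO-9 of cage B, and at 11.9 in WT-6, 10.8 in WT-10 and 12.8 in KO-3 of cage C. Every mouse of cage C was lower (-0.60 ± 0.14, limma FDR 0.988). Bgn, the small proteoglycan biglycan, was at 23.2 TPM in WT-2, 15.7 in WT-11, 14.9 in KO-4 and 18.6 in KO-9 of cage B, and at 14.5 in WT-6, 11.7 in WT-10 and 13.1 in KO-3 of cage C, also without overlap (-0.46 ± 0.18). The fibrillar collagen Col3a1 had 21.5, 27.7, 28.1 and 32.2 TPM in cage B and 21.6, 20.9 and 16.8 TPM in cage C (-0.45 ± 0.17), with WT-2 inside the range of cage C. Col6a2, of the microfibrillar collagen VI, had 9.47, 8.31, 6.21 and 11.6 TPM in cage B and 4.95, 6.61 and 4.76 TPM in cage C (-0.66 ± 0.23).

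Endothelial genes were lower for all 8 tested of 21 listed, with a median of -0.43. Among WT mice alone 1 of 8 was higher, and among KO mice alone 2 of 8 were. Plvap, which forms the diaphragms of fenestrated capillaries, was at 5.41 TPM in WT-2, 4.79 in WT-11, 3.07 in KO-4 and 7.7 in KO-9 of cage B, and at 2.05 in WT-6, 2.59 in WT-10 and 2.09 in KO-3 of cage C (-1.02 ± 0.29). No mouse overlapped, and the difference was -0.995 among WT mice and -1.06 among KO mice. Ecscr, an endothelial surface protein, was listed at 0 in WT-2 and in the 3 mice of cage C and had 1.75, 1.45 and 1.77 TPM in WT-11, KO-4 and KO-9. It passed the filter through these mice of cage B alone, so its direction in the count of 8 was fixed by the filter. Smooth muscle genes were lower for 18 of 23 with a median of -0.10, which without KO-3 was 0.15. Enteric nerve and pacemaker genes were lower for 13 of 19 with a median of -0.06. With any 1 mouse left out this median ranged from -0.13 (without WT-11) to -4.44e-04. The neuronal tubulin Tubb3 was at 12.3, 10.2, 11.7 and 11.7 TPM in cage B and 8.07, 9.69 and 8.01 TPM in cage C, without overlap (-0.40 ± 0.13), and the neuronal Stmn2 at 15.6, 10.8, 13.01 and 12.2 TPM in cage B and 8.79, 10.8 and 12.1 TPM in cage C (-0.26 ± 0.17).

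Adipocyte genes had lower values in cage C, with WT-11 of cage B far above the rest. Cfd, the complement protease adipsin of fat cells, was at 3.46 TPM in WT-2, 88.3 in WT-11, 7.58 in KO-4 and 3.895 in KO-9 of cage B, and at 0.708 in WT-6, 0 in WT-10 and 2.98 in KO-3 of cage C. Fabp4, the fatty acid carrier of adipocytes and capillaries, was at 11.7 TPM in WT-2, 59.4 in WT-11, 13.7 in KO-4 and 16.2 in KO-9 of cage B, and at 5.86 in WT-6, 5.73 in WT-10 and 8.83 in KO-3 of cage C. WT-11 was several times above the other mice for both, and the cages did not overlap even so (-3.07 ± 1.23 and -1.55 ± 0.56). With a mouse left out, the difference of Cfd ranged from -4.59 to -1.56 and that of Fabp4 from -2.10 to -0.84. The list was lower for 9 of 11 with a median of -0.60, and -0.21 without WT-11. Summed adipocyte TPM ranged from 119.5 to 325 in cage B and from 107 to 119.9 in cage C. The amount of attached fat was not recorded, and its part in these values was not tested.

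**Figure D4:**
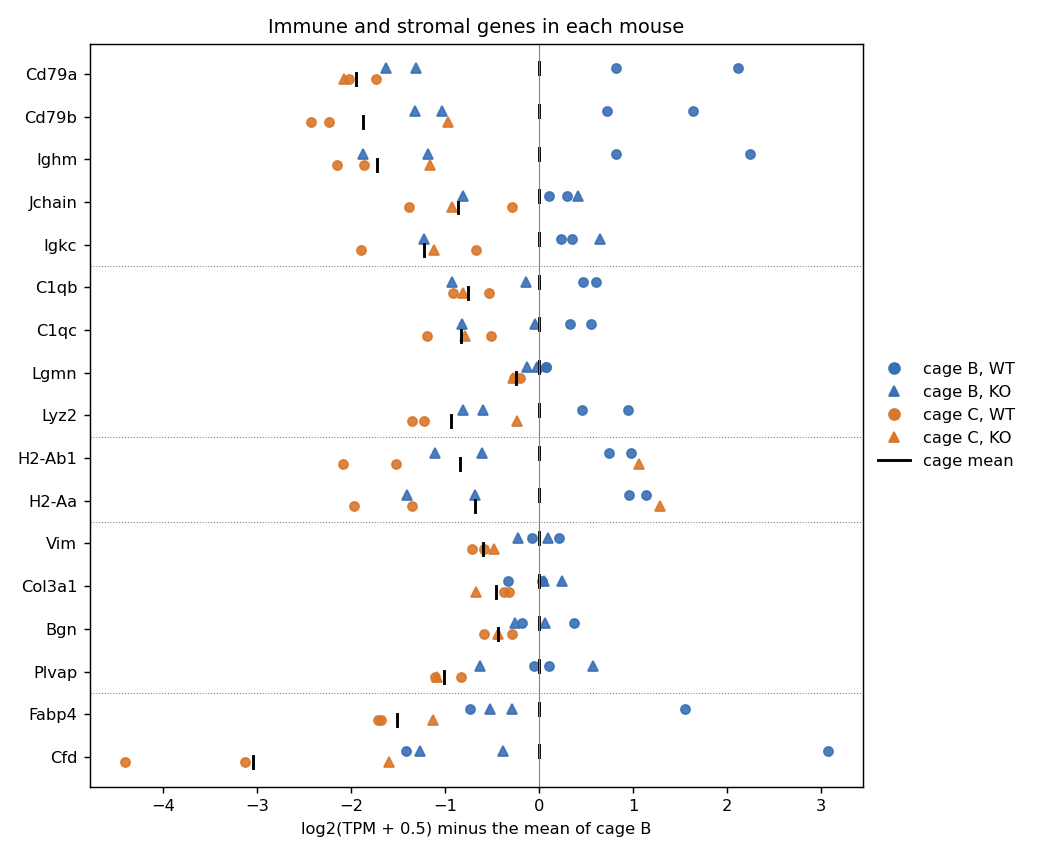
Log2(TPM + 0.5) of genes of B cells and plasma cells, macrophages, MHC class II, stroma and fat (groups from top to bottom, parted by dotted lines) in each mouse, set to the mean of cage B. Marks are blue for cage B, orange for cage C, circles for WT and triangles for KO, and black bars are cage means. WT-2 and WT-11 lead the B cell genes, KO-3 lies with them for H2-Ab1 and H2-Aa, and WT-11 alone is high for Fabp4 and Cfd.

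Mitochondrially encoded genes were higher in cage C for all 13, with a median of 0.38, which without KO-3 was 0.14. They took 28.2% of the summed TPM in WT-2, 23.04% in WT-11, 29.8% in KO-4 and 29.8% in KO-9 of cage B, and 22.3% in WT-6, 31.4% in WT-10 and 42.9% in KO-3 of cage C. Cage C held both the lowest and the highest mouse. The means were 27.7% ± 3.20 (SD, n = 4) and 32.2% ± 10.3 (SD, n = 3), 4.51 percentage points apart (two-sided exact permutation p = 0.457), and without KO-3 the difference was -0.82 points. mt-Atp8, a subunit of ATP synthase, was at 3166 TPM in WT-2, 2198 in WT-11, 4122 in KO-4 and 3643 in KO-9 of cage B, and at 2904 in WT-6, 4137 in WT-10 and 6690.0 in KO-3 of cage C (0.55 ± 0.20). mt-Nd4l, of complex I, had 0.44 ± 0.22, and mt-Co1, the catalytic subunit of cytochrome oxidase, 0.38 ± 0.23. Respiratory chain genes of the nucleus were higher for 11 of 45, with a median of -0.07. Without KO-3 this median was 0.03, with 25 of 45 higher. Because TPM is a share of the library, a high mitochondrial share lowers every other value of that mouse. After rescaling without these genes the median over all genes was 0.01 in place of -0.01. More genes then passed the filter, 12174 in place of 10850, so these medians cover different sets of genes.

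**Figure D5:**
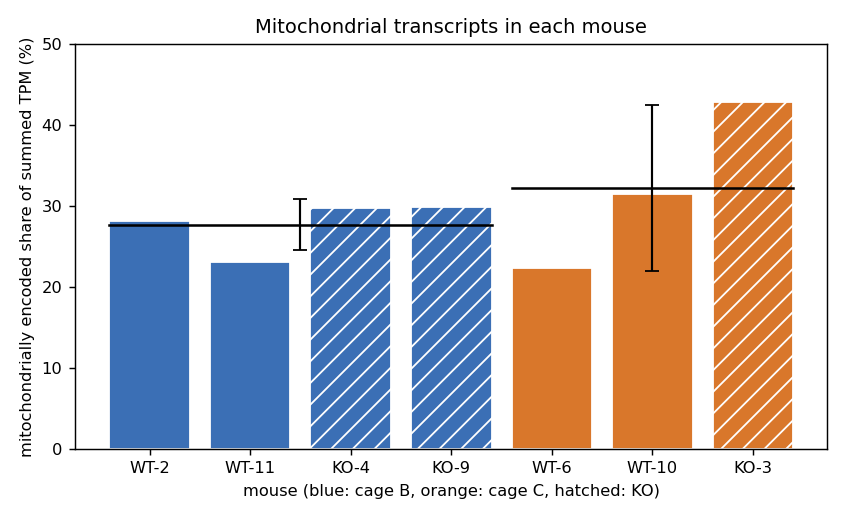
Share of summed TPM from mitochondrially encoded genes in each mouse, in percent, with blue bars for cage B, orange for cage C and hatching for KO. Black lines are cage means and error bars their SD. KO-3 at 42.9% is the highest mouse and WT-6 at 22.3% the lowest, both from cage C.

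Lipid and clock genes showed small or uneven differences. Of 30 fatty acid and PPAR target genes 13 were higher, with a median of -0.03, which without WT-10 was 0.05. Besides Fabp2, Cd36, a fatty acid transporter, was at 2.54, 3.84, 1.63 and 2.44 TPM in cage B and 1.62, 1.696 and 1.22 TPM in cage C (-0.67 ± 0.22), and Scd1, the desaturase that makes oleate, at 10.8, 19.2, 10.98 and 6.15 TPM in cage B and 6.52, 6.05 and 6.304 TPM in cage C (-0.83 ± 0.30). Both are also high in fat cells, and WT-11 had the highest value of each. Cd36 had a technical variance of 1.34, against a median of 0.0113 over the genes tested. Cholesterol synthesis genes were higher for 21 of 25 with a median of 0.08, which without KO-3 was -0.10. Idi1, an isomerase of the pathway, was at 97.7 TPM in WT-2, 84.04 in WT-11, 47.7 in KO-4 and 37.2 in KO-9 of cage B, and at 105 in WT-6, 86.6 in WT-10 and 105 in KO-3 of cage C (0.57 ± 0.26), with the KO mice of cage B the lowest, and Acat2 had 0.35 ± 0.19. Clock genes were higher for 14 of 19 with a median of 0.16, which was 0.04 without KO-3, with 11 of 19 higher, and 0.05 without KO-4. Arntl, which encodes the activator BMAL1, was at 1.601 TPM in WT-2, 4.18 in WT-11, 7.74 in KO-4 and 5.73 in KO-9 of cage B, and at 6.44 in WT-6, 7.43 in WT-10 and 8.75 in KO-3 of cage C (0.89 ± 0.33), with WT-2 the lowest, and the repressor Cry1 had 0.48 ± 0.25. The hour of dissection is not given in the labels.

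Among genes without overlap and with a mean of 5 TPM or more, the largest differences were those of 12 genes, 6 in each direction. Their technical variance ran from 0.0140 (Fabp4) to 2.33 (Kdm1a), against a median of 0.0113 over the genes tested. Among the 6 higher genes it was lowest for Tceanc2, at 0.373, and it was 1.52 for Chpt1 and 1.06 for Mrps10. Of the lower genes, Cd79a had 0.0481 and C1qtnf6 0.0444, but Lsr 1.16. Lower in cage C were Cfd, Cd79a, Fabp4 and Lars2, given above, then Lsr, a receptor of the corners where epithelial cells meet, at 17.3, 33.9, 16.4 and 24.02 TPM in cage B and 11.98, 8.11 and 13.3 TPM in cage C (-0.98 ± 0.30), and C1qtnf6, at 14.5, 13.1, 16.6 and 11.4 TPM in cage B and 9.33, 4.18 and 8.296 TPM in cage C (-0.92 ± 0.28). Higher in cage C was Chpt1, which makes phosphatidylcholine, at 9.18 TPM in WT-2, 10.6 in WT-11, 1.63 in KO-4 and 0.538 in KO-9 of cage B, and at 25.02 in WT-6, 18.4 in WT-10 and 15.4 in KO-3 of cage C (2.02 ± 0.51). In cage B the WT mice exceeded the KO mice for this gene, and without KO-3 the difference was 1.08. B3gnt2, a glycosyltransferase of N-acetyllactosamine chains, had 6.48, 6.89, 2.25 and 5.12 TPM in cage B and 13.4, 7.44 and 10.2 TPM in cage C (0.91 ± 0.34), Ly6g2 1.01 ± 0.39 and Tceanc2 0.79 ± 0.20. Kdm1a, the histone demethylase LSD1, had 4.995, 5.50e-07, 8.99 and 7.52 TPM in cage B and 11.7, 10.6 and 11.1 TPM in cage C (1.85 ± 0.86), with WT-11 next to 0, and without WT-11 the difference was 0.75. Mrps10, of the mitochondrial ribosome, had 0.08696, 10.1, 0 and 10.9 TPM in cage B and 14.2, 16.7 and 10.99 TPM in cage C (2.51 ± 1.30), with WT-2 and KO-4 near 0 and KO-9 just under KO-3. Without WT-2 its difference was 1.43.

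Across another 29 lists, of other cell types, tissues and pathways, medians lay between -0.61 and 0.27, and within 0.15 of 0 for 23 of them. Of their 455 tested genes, 4 were higher and 10 lower at p below 0.05, or 3.08%, fewer than the 4.95% of all genes tested. Lists on the regional identity of the gut, tight junctions, ErbB receptors and ligands, butyrate use and xenobiotic metabolism had medians of 0.04, 0.04, -0.03, -0.05 and 0.02.

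Whether the cage difference depended on genotype was tested with an interaction term over the same mice, a fit chosen after the data were seen. It called 1 gene of 10850 (0.00922%), and 630 (5.81%) had an unadjusted p below 0.05. The gene was Ube2j2, whose enzyme tags misfolded proteins with ubiquitin at the endoplasmic reticulum, at 27.7 TPM in WT-2, 37.7 in WT-11, 27.4 in KO-4 and 26.1 in KO-9 of cage B, and at 41.1 in WT-6, 37.6 in WT-10 and 0.00494 in KO-3 of cage C (limma FDR 0.00963). KO-3 stood alone near 0. The differences of Ube2j2 were 0.28 among WT mice and -5.76 among KO mice. Since KO-3 is the KO arm of cage C, a dependence on genotype and a deviation of this mouse cannot be told apart. The leading transcript of Ube2j2 had an estimated count of 209 and a technical variance of 0.474, against medians of 205 and 0.0113 over the genes tested. The part of this measurement error in the value of KO-3 was not tested.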

How the data were processed

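Per the submitters' processing notes, reads were handled with CASAVA, kallisto and sleuth on mm10; no versions or settings are stated there. The deposited table holds the authors' TPM per transcript and mouse, plus columns of the authors' sleuth model, namely scores and natural log values, from which only the mean log estimated count (given as its exponential) and the technical variance were read. Repeated transcripts were dropped and TPM summed per gene. The deposited transcripts summed to between 6.12e+05 TPM (WT-6) and 7.71e+05 TPM (KO-3) per mouse. This is short of a whole library, so the level of a gene covers its listed transcripts and can lack others. Raw counts were not used here, so per-mouse depth is unknown. Genes with 1 TPM or more in 3 of 7 mice entered limma 3.58.1 (R 4.3.3) on log2(TPM + 0.5), in a fit of cage plus genotype with a mean-variance trend and 4 residual degrees of freedom. Called means a Benjamini-Hochberg FDR below 0.05. Single sums were compared by two-sided exact permutation over mice. The procedure was tested on simulated data. Genes named are the 12 in each direction with the smallest p, the 2 of each list with the smallest p, the 6 in each direction with the largest difference among non-overlapping genes of 5 TPM or more, and others chosen after their values were seen. Of the genes these rules name, 1 is not reported here. The cages, lists and rules were chosen with earlier results of these data known. Coordinates are GENCODE M21 (GRCm38, mm10). Each mouse is a separate animal. Cage A entered only 1 alternative.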

Additional observations from a re-analysis of the deposited data

Results flagged for a closer look

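Of 128 sets of 4 values examined in cage B (genes named and gene lists), 8 had 1 mouse far from the other three by Dixon's ratio, the gap to the nearest value over the whole range (above its 95% critical value). Chance gives about 1 in 20. Among genes, KO-4 was low for Abo (0.894) and for Sct (0.841), WT-2 was listed at 0 for Ecscr (0.901), and WT-11 was high for Ube2j2 (0.840). Among lists, WT-2 was low for absorptive colonocyte genes (0.921), WT-11 was low for enteric neuron, glia and pacemaker genes (0.882) and high for adipocyte genes (0.869), and KO-9 was low for fatty acid metabolism genes (0.880). Cage C, with 3 mice, was not examined by this ratio.

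The cage difference of Ube2j2 differed between genotypes by the interaction term (limma FDR 0.00963), KO-3 being the 1 mouse near 0.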

How the results depend on the processing

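The number of genes at an FDR of 0.05 was 0 under most alternatives. It was 1 without the genotype term (Tbc1d19, limma FDR 0.00962), 1 among WT mice only (Tra2a, limma FDR 0.0470), 1 after rescaling without mitochondrial genes (Tbc1d19, limma FDR 0.0284) and 2 without the mean-variance trend (Tbc1d19 and Ighv14-1, limma FDR 0.0221 and 0.0498). With 1 mouse left out it ranged from 0 to 2, the 2 being Tra2a and Rexo4 without KO-3. The count at an unadjusted p below 0.05 was 952 of 17532 genes with no filter and 319 of 6816 with a filter of 5 TPM, where the number of genes tested sets it, and 438 to 571 with 1 mouse left out. The share of these that were higher in cage C was 36.5%, 44.7% without WT-10 and 46.6% without WT-11. The difference in mitochondrial share ranged from -0.822 to 9.45 percentage points with 1 mouse left out, -0.822 being without KO-3. The difference of Mki67 ranged from -0.42 (without WT-2) to 0.016 with 1 mouse left out. It turned to 0.0017 among WT mice and without KO-3 and to 0.016 without WT-11, and that of Ube2j2, from -2.85 (without WT-2) upward, to 0.28 among WT mice and without KO-3. Beyond what these settings construct, the cause was not tested. Of the other values for single genes, 1823 kept direction and side of the threshold. Of the medians of the 23 lists described, 392 moved by less than the spread between mice and 19 by more, most of them among WT mice only, without KO-3 or for the heat shock list. The 7 lists whose median turned in sign under an alternative have such a value beside them above. No paired analysis was possible because the mouse numbers are unique across the cages. Cage C has 3 mice and 1 KO mouse, estimates of genes under a few TPM rest on few reads, and the exact test cannot reach 0.05.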
